A study of Mus musculus with 4 samples.

Results

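Genes that hold back the cell division cycle were read in immortalised mouse embryonic fibroblasts (MEFs) with and without PA1, on 4 Affymetrix arrays. The members were 10 genes named by symbol: the CDK inhibitor genes Cdkn2a, Cdkn2b, Cdkn2c, Cdkn1a and Cdkn1b, the p53 gene Trp53, its regulator Mdm2, and the retinoblastoma family genes Rb1, Rbl1 and Rbl2. Probe sets whose platform annotation gives 1 of these symbols numbered 18 of 45037 and covered 9 genes. No probe set was matched to Trp53, which was not analysed here. All cells carried a PA1 allele flanked by loxP sites (PA1loxP/loxP). The PA1 +/+ cells had received the empty retroviral vector and the PA1 -/- cells a retrovirus with Cre, the recombinase that cuts out DNA flanked by such sites. All were selected with puromycin at 2.0 µg/ml for 3 days, and then selected again. Each group had 2 arrays, numbered 1 and 2 in the labels, which do not say whether the numbers mark separate cultures. Every p therefore measures spread among these 4 samples, part of which may be technical. The sources used here do not give how the cells were immortalised, or whether either group is a clone. The controls had no Cre, so Cre and loss of PA1 cannot be told apart.

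INK4 proteins (p16 from Cdkn2a, p15 from Cdkn2b, p18 from Cdkn2c) bind CDK4 and CDK6 and block cyclin D kinases, while the CIP/KIP proteins (p21 from Cdkn1a, p27 from Cdkn1b) act mainly on cyclin E and cyclin A kinases. With these kinases restrained, the pocket proteins encoded by Rb1, Rbl1 (p107) and Rbl2 (p130) stay bound to E2F factors and keep S-phase genes low. Cdkn2a also encodes Arf from a start site of its own. Arf holds back Mdm2, the ubiquitin ligase that degrades p53, and p53 in turn activates Cdkn1a and Mdm2. Cultured mouse fibroblasts commonly become immortal after losing either Arf or p53 function.

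The stretches upstream of the transcript starts are shown for the 4 genes that differed most between the arrays, because Cdkn2a and Cdkn2b varied one way and Cdkn1a and Mdm2 the other. Each is the 250 bases before a RefSeq start of build GRCm38.p6, written 5′ to 3′ on the strand of the gene. Capitals mark matches, on either strand, to the E2F letters TTTCCCGC, TTTCGCGC, TTTGCCGC or TTTGGCGC, to the consensus decamer of p53, or to a pair of ACATGT cores with any 4 bases between them. For Cdkn2a the upstream start, which gives Arf, is at chr4:89294620-89294869, minus strand, and the downstream start, which gives p16, at chr4:89282193-89282442, minus strand. Cdkn2b is at chr4:89311033-89311282, minus strand, Cdkn1a, at the upstream of its 2 starts, at chr17:29090729-29090978, plus strand, and Mdm2 at chr10:117710759-117711008, minus strand.
Cdkn2a, Arf start: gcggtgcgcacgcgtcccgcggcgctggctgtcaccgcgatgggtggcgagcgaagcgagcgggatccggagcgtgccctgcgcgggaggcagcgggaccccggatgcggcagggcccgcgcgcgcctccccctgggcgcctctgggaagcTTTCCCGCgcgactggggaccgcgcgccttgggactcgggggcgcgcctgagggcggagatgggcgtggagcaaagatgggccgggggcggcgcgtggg
Cdkn2a, p16 start: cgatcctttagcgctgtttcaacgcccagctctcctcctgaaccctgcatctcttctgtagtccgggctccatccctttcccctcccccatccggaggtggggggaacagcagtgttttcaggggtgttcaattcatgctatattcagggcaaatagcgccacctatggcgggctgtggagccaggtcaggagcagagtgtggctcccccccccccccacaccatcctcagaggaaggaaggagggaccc
Cdkn2b: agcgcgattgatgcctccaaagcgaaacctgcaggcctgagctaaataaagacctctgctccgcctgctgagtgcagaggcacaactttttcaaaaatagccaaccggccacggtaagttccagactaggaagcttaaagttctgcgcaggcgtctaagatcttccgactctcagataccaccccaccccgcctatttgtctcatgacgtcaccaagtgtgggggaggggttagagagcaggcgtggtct
Cdkn1a, upstream start: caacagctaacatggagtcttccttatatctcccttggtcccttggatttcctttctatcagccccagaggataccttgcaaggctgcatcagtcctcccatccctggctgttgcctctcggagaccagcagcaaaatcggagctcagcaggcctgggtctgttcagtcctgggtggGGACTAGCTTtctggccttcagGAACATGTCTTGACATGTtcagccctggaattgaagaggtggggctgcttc
Mdm2: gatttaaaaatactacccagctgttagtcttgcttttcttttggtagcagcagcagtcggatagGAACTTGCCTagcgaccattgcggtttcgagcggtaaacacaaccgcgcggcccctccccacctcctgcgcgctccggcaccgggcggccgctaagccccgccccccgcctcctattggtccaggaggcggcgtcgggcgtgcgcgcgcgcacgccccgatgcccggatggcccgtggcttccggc

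The stretch before the upstream Cdkn1a start held the pair of ACATGT cores at -49 to -34 from that start, overlapping a decamer match at -51 to -42, and another decamer match at -73 to -64. The window of the downstream Cdkn1a start (chr17:29093519-29093768, plus strand, not shown) held 0 matches to the decamer and 0 core pairs. Only 4 of 32851 upstream windows of this length (0.0122%) held such a pair, while 7.13% held a decamer match. The core and spacing searched for are those of this Cdkn1a stretch. The rarity of the pair is therefore no independent evidence about Cdkn1a. The Mdm2 stretch held 1 decamer match, at -186 to -177. Trp53, whose stretch is not shown, also had 1, at -75 to -66. An E2F match stood upstream of the Arf start, at -99 to -92, and 1.86% of all windows held one. Rbl1, whose stretch is not shown, had TTTCGCGC at -18 to -11. The Arf window was rich in CpG, with 40 against a median of 6 over all windows, and 1.31% of windows held as many. The p16 window held 7, Cdkn2b 12, Mdm2 29, and Cdkn1a 2 before its upstream and 19 before its downstream start. A match to these letters is a description of the sequence, and binding was not measured.

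The Pagr1a gene, read here as PA1, separated the groups. Its brightest probe set read 1340.3 and 1389 on the wild-type arrays and 108 and 113 on the knockout arrays (limma adjusted p = 0.876 with genotype as the only term). Array medians lay between 63.2 and 66.4 over all probe sets. Of the 18 probe sets of the cell cycle genes, 13 passed the filter on dim values, at least 1 for each of the 9 genes, and those below it read between 4.52 and 65.0. Each gene was read through its brightest probe set unless stated. Signals are in the linear units of MAS5 (the Affymetrix summary of a probe set), and differences are in log2(signal + 9.96).

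None of the 9 genes passed the comparison of knockout with wild type. In limma with genotype as the only term, 0 of 22519 probe sets passed an adjusted p under 0.05 (0%), with 440 at an unadjusted p under 0.05, and the 13 tested member probe sets had unadjusted p-values of 0.281 and above and adjusted p-values that round to 1.0. An exact test of 2 arrays against 2 cannot go below 0.333. The knockout arrays both lay below the wild-type arrays for 1 of the 9 genes, Rbl1, against 11.3% of the 10714 genes tested, and both above for 0, against 15.0%. Within each number, 5 genes were below 0 at both and 1 was above 0 at both, against 29.3% and 33.9% of all genes. Under quantile normalization 4 were below 0 at both, since Cdkn1a at number 2 moved from -0.02 to 0.03. At least 2-fold differences at both numbers, in either direction, were seen for 0 of the 9, against 0.831% lower and 0.187% higher among all genes. The median of the 9 differences was -0.10, beside 0.02 over all genes. Pagr1a, which separated the groups, did not pass this fit either (limma adjusted p = 0.876). A difference that misses the threshold therefore does not show that levels were alike.

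**Figure D1:**
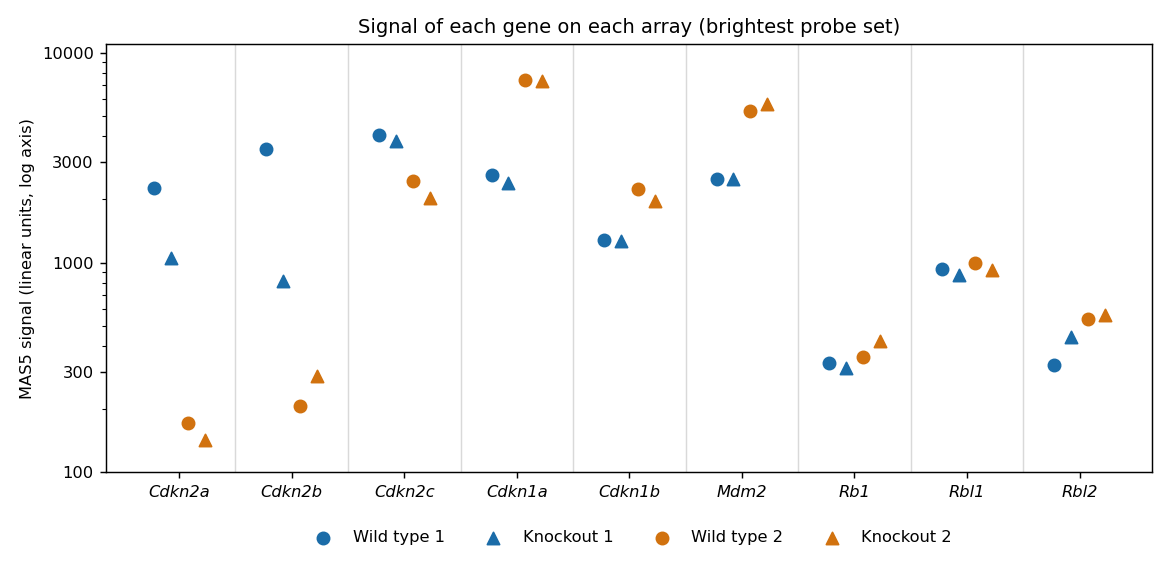
MAS5 signal (log axis) of the brightest probe set of each gene on each of the 4 arrays, with circles for wild type, triangles for knockout, blue for number 1 and orange for number 2. Cdkn2a and Cdkn2b stand high on both arrays numbered 1 (from 819.7 to 3466) and low on both numbered 2 (from 142 to 289), while Cdkn1a and Mdm2 stand higher on the arrays numbered 2.

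Cdkn2a and Cdkn2b held the widest genotype differences among the 9 genes, and these lay at number 1. Cdkn2b was at 3466 (wild type) and 819.7 (knockout) at number 1, and 207 and 289 at number 2. So the wild-type array numbered 1 stood far above the other 3, and the genotypes overlapped. The log2 difference was -2.07 at number 1 and 0.47 at number 2. At number 1, 57 of 10714 genes, Cdkn2b included, were this low or lower. Over both numbers wild type read 1836 ± 2304 and knockout 555 ± 375 (mean ± SD, n = 2 arrays in each). In limma the genotypes differed by -0.80 on the log2 scale (standard error 1.40).

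Cdkn2a read 2267 and 1052 in wild-type and knockout cells at number 1, and 173 and 142 at number 2. Knockout was lower at both numbers, by differences of -1.10 and -0.27, but the knockout array numbered 1 lay above the wild-type array numbered 2, so the genotypes overlapped. In limma the genotypes differed by -0.68 (standard error 1.51). Without the wild-type array numbered 1 the signs turned, to 1.14 for Cdkn2a and 1.20 for Cdkn2b, and without the knockout array numbered 2 Cdkn2a was at 0.72 and Cdkn2b at -0.07. Such fits hold unequal numbers in the genotypes. The 1 probe set of Cdkn2a gives no separate reading of p16 and Arf here. Cdkn2a and Cdkn2b are neighbouring paralogs with a similar exon, and whether a probe set of one also reads the other was not tested.

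Among the members, Cdkn2c was the INK4 gene that lies apart from that pair. Cdkn2c read 4031 and 3802 in wild-type and knockout cells at number 1, and 2434 and 2032 at number 2. The arrays numbered 1 were the higher ones in both genotypes. Within numbers the log2 differences were -0.08 and -0.26.

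Cdkn1a and Cdkn1b, the CIP/KIP genes among the members, showed small genotype differences. Cdkn1a read 2610.2 and 2391 in wild-type and knockout cells at number 1, and 7428 and 7339 at number 2, with log2 differences of -0.13 and -0.02. Both arrays numbered 2 were high, whatever the genotype. The other probe set of Cdkn1a read 1312 and 937 at number 1 and 2585 and 2752 at number 2, with differences of -0.48 and 0.09. Cdkn1b read 1283 and 1269.8 at number 1 and 2231 and 1954 at number 2, with differences of -0.01 and -0.19. It too was higher on both arrays numbered 2. A dim second probe set of Cdkn1b, below the filter, read between 35.5 and 65.0.

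Mdm2 followed the pattern of Cdkn1a. Through its brightest probe set, Mdm2 was at 2514 (wild type) and 2495 (knockout) at number 1, and 5296 and 5673 at number 2. The next probe set read 1346 and 1381, then 3475 and 3862. Both probe sets were high on the arrays numbered 2 in both genotypes, and their genotype differences lay between -0.01 and 0.15.

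By their brightest probe sets, the retinoblastoma family genes had the narrowest ranges over the 4 arrays. Rb1 read 333 and 314 in wild-type and knockout cells at number 1, and 355 and 421 at number 2 (differences -0.08 and 0.24). Rbl1 read 935 and 868, then 994 and 917, so knockout was lower at both numbers by -0.11 each. Its second tested probe set went the other way, at 161 and 223, then 86.5 and 139, with differences of 0.44 and 0.62. The 2 tested probe sets of Rbl1 thus disagreed in direction at both numbers. Rbl2 read 324 and 443, then 539 and 564 (0.44 and 0.06), and its other probe set gave 0.34 and 0.11. Rbl2 was the 1 gene above 0 at both numbers by its brightest probe set. Dim probe sets of Rb1 and Rbl1, below the filter, read between 4.52 and 23.9.

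**Figure D2:**
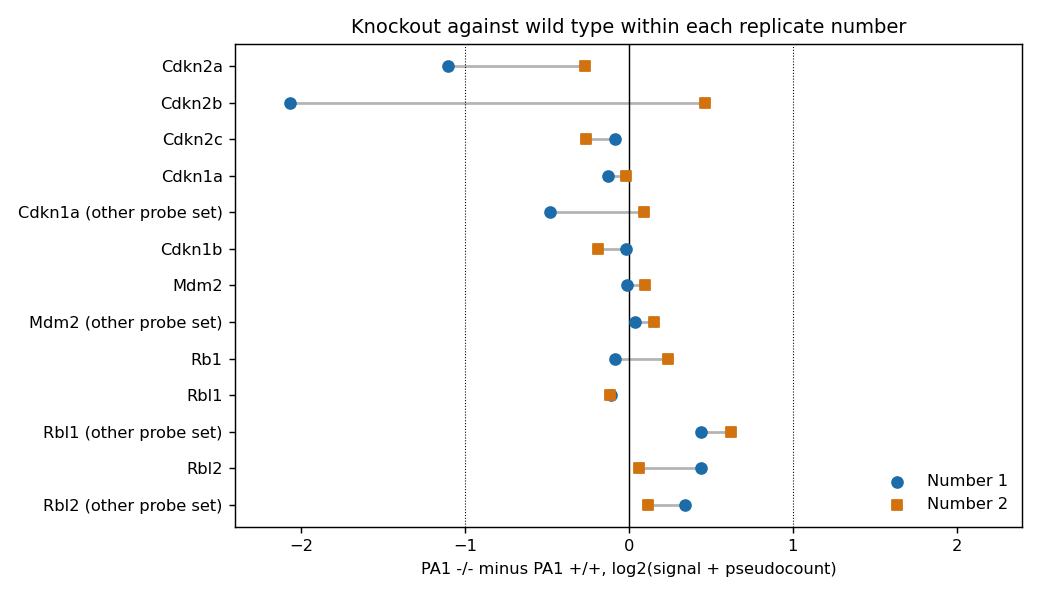
Log2 difference of the knockout and the wild-type array of the same number for the 13 tested probe sets, blue circles for number 1 and orange squares for number 2, with dotted lines at 2-fold. Only Cdkn2a and Cdkn2b pass 2-fold, both at number 1, at -1.10 and -2.07.

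For Cdkn2a, Cdkn2c, Cdkn1a, Cdkn1b and Mdm2, the difference between numbers was larger in each genotype than the difference between genotypes at either number. Cdkn2a was 12.5-fold lower at number 2 in wild-type cells and 6.98-fold lower in knockout cells, on the log2(signal + 9.96) scale. Cdkn2b was 16.0-fold lower in wild-type and 2.77-fold lower in knockout cells. Cdkn1a was 2.84-fold higher at number 2 in wild-type and 3.06-fold higher in knockout cells, and Mdm2 2.10-fold and 2.27-fold higher. These 4 genes were at least 2-fold apart in both genotypes, 2 in each direction, against 3.78% of all genes higher and 4.52% lower at number 2. With number 2 minus number 1 taken in both genotypes, 59 of 10714 genes were as low as Cdkn2a or lower in each genotype, and 154 were as high as Cdkn1a or higher, each count including the gene itself.

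Smaller differences of the same kind stood in the others. Cdkn1b differed between numbers by 0.79 in wild-type and 0.62 in knockout cells, Rbl2 by 0.72 and 0.34, and Rb1 by 0.09 and 0.41. Cdkn2c differed by -0.73 and -0.90. Rbl1, at 0.09 and 0.08 by its brightest probe set, was the 1 gene whose arrays overlapped between numbers. The second tested probe set of Rbl1 did not overlap and was lower at number 2, by -0.83 and -0.65. In all, the arrays numbered 2 both lay above those numbered 1 for 5 of the 9 genes, against 29.8% of all genes, and both below for 3, against 31.0%. The numbers are not study groups and 1 array a genotype stands behind each value, so no test was made.

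**Figure D3:**
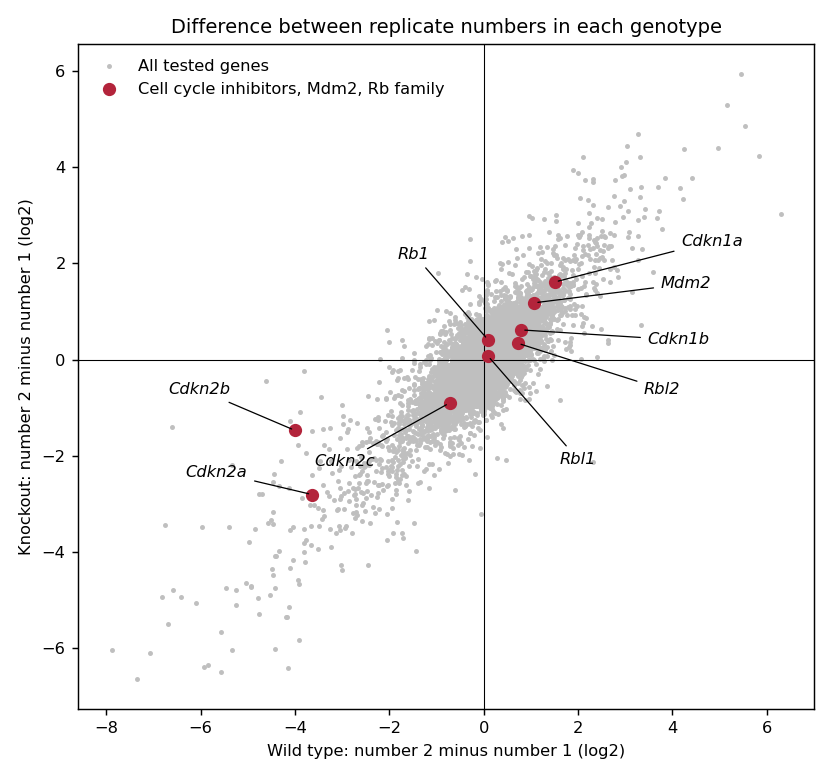
Number 2 minus number 1 on the log2 scale in wild-type cells (x axis) and in knockout cells (y axis), with 10714 tested genes in grey and the 9 cell cycle genes in red. Cdkn2a (-3.64 and -2.80) and Cdkn2b (-4.00 and -1.47) lie at the lower left, and Cdkn1a (1.51 and 1.61) and Mdm2 (1.07 and 1.18) at the upper right.

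Genes next to the Cdkn2a and Cdkn2b pair were read to see how far the pattern reached along chromosome 4. Mtap, a methionine salvage gene and the nearest neighbour on one side, read 5185 and 5085 in wild-type and knockout cells at number 1, and 3154 and 3519 at number 2. It was thus lower at number 2 by -0.72 and -0.53, far less than the pair. Dmrta1, the nearest on the other side, was below the filter, at 2.61 to 19.7 on the 4 arrays. These neighbours were looked up after the values of the pair were known.

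Cdkn2b had the widest range over the arrays among the 9 genes (4.00 on the log2 scale), and 116 of the 10714 tested genes, Cdkn2b included, had a range as wide. The tested gene whose profile lay nearest to it was Epb41l4a. Epb41l4a read 620.1 and 181 in wild-type and knockout cells at number 1, and 36.3 and 40.1 at number 2. Acan, which encodes the proteoglycan aggrecan, and Nrep came next. Distances of log2 values centred on the mean of each gene over the 4 arrays were 0.37, 0.53 and 0.55. Cdkn2a was at 0.98, with 20 genes nearer. Likeness over 4 arrays is a description, with no test.

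Known p53 target genes, a list that holds Cdkn1a and Mdm2 themselves, had 25 tested genes. Between genotypes 0 passed limma at an adjusted p under 0.05 (0 at an unadjusted p under 0.05), beside 0 (231) of all 10714 tested genes. Their median difference was 0.04, beside 0.02 over all genes. In the knockout 11 of the 25 were higher and 8 lower at both numbers, beside 33.9% and 29.3% of all genes. Pmaip1, which encodes the death inducer Noxa, read 462 and 1304 in wild-type and knockout cells at number 1 and 39.5 and 104 at number 2 (differences 1.48 and 1.20). Rrm2b, a subunit of ribonucleotide reductase, differed by 0.34 and 0.43. On the lower side, Bbc3, which encodes the death inducer Puma, read 425 and 192, then 526 and 318 (-1.11 and -0.71), and the antiproliferative gene Btg2 differed by -0.58 at both numbers.

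Between numbers, 7 of these 25 genes were at least 2-fold higher at number 2 in both genotypes and 2 at least 2-fold lower, against 3.78% and 4.52% of all genes. Their medians were 0.38 in wild-type and 0.70 in knockout cells, beside 0.02 and -0.03 over all genes. Beyond Cdkn1a and Mdm2, the 5 higher ones were Aen, a nuclease gene induced by p53 (1450 and 4060.1 in wild-type, 1636 and 4374 in knockout cells at numbers 1 and 2), Phlda3 (1.20 and 1.21), Polk (1.83 and 1.37), Trp53inp1 (1.02 and 1.95) and Eda2r (1.08 and 1.56). Pmaip1 (-3.25 and -3.53) and Perp (-2.86 and -2.94) were the 2 lower ones. The list thus did not move one way. Perp also has a role in the desmosomes of epithelia, whose markers differed between numbers in both directions and by unlike amounts. Krt18 (-3.85 and -2.87) and Cdh1, below the filter, were lower at number 2 in both genotypes. Epcam was higher (0.15 and 0.71). Krt8, below the filter, read 53.8 and 41.0 at number 1 and 55.2 and 47.4 at number 2. The part of such markers in the level of Perp was not tested.

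**Figure D4:**
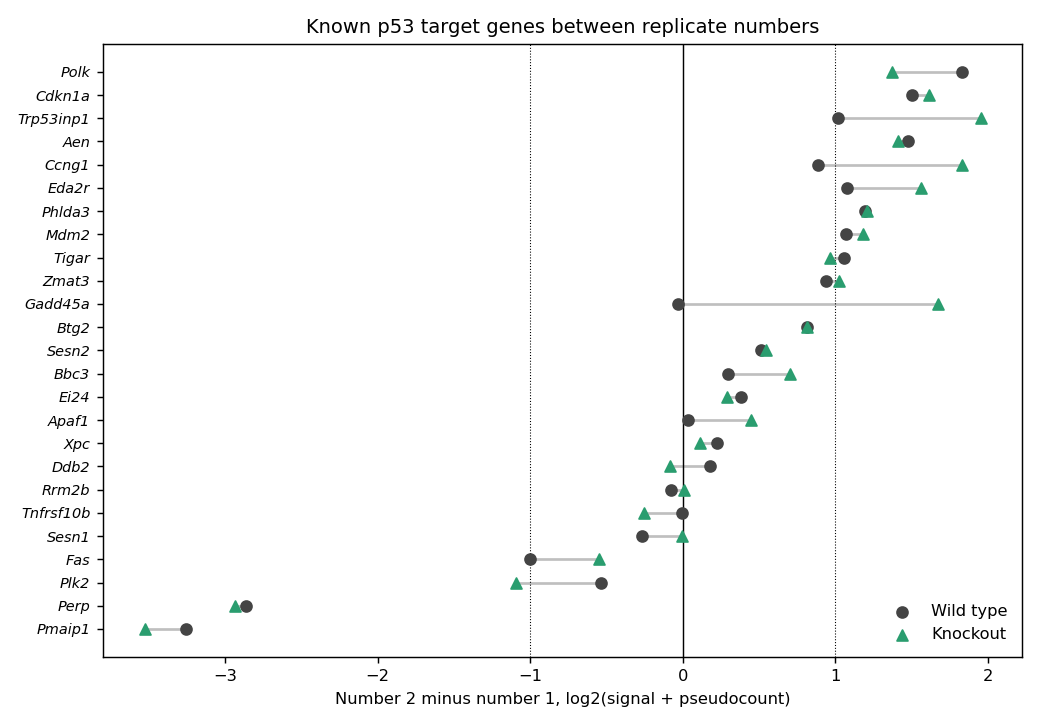
Number 2 minus number 1 on the log2 scale for the 25 tested p53 target genes, circles for wild type and triangles for knockout, with dotted lines at 2-fold. Cdkn1a, Mdm2 and 5 others pass 2-fold higher in both genotypes, and Pmaip1 and Perp lie far below.

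The kinases that the inhibitors act on, and the factors that pocket proteins bind, were read from lists as well. In each, as in the lists of regulators, 0 genes passed limma at an adjusted p under 0.05 and 0 reached an unadjusted p under 0.05. Over all 10714 tested genes these counts were 0 and 231. At that share a list this short holds few or none, so the 0 does not set these lists apart. For comparison with each list, 33.9% of all tested genes were higher and 29.3% lower in the knockout at both numbers, and their median was 0.02. Of 15 tested cyclin, CDK and Cdc25 genes, 3 were higher and 4 lower in the knockout at both numbers. Ccnd1, which encodes cyclin D1, read 2720.0 and 1662 in wild-type and knockout cells at number 1 and 12577 and 8719 at number 2 (-0.71 and -0.53). Cdk6 read 3997 and 2792, then 648 and 405 (-0.52 and -0.67). Ccnd1 was high and Cdk6 low on both arrays numbered 2. Ccnd2 differed between genotypes by 0.28 and 0.34, and the phosphatase gene Cdc25a by 0.63 and 0.38.

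Of the 3 other CDK inhibitor genes, Cdkn1c, an imprinted gene that encodes p57, read 2160.1 and 854 at number 1 but 43.4 and 3.16 at number 2. Cdkn1c was thus low on both arrays numbered 2, as Cdkn2a and Cdkn2b were. Its log2 differences between genotypes were -1.33 and -2.02, the second between dim readings. Cdkn1c was at least 2-fold lower in the knockout at both numbers, as were 0.831% of all genes. In limma the genotypes differed by -1.68 for Cdkn1c (standard error 2.63). Cdkn3 differed between genotypes by -0.41 and -0.26.

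Of 17 E2F and DREAM complex genes, 11 were higher and 4 lower in the knockout at both numbers, with a median of 0.23, beside 33.9%, 29.3% and 0.02 over all genes. E2f3 differed by 0.66 and 0.31, and Tfdp2, which encodes a partner of E2F, by 0.63 and 0.29. Lin52 differed by -1.28 and -0.62 and Lin37 by -0.41 and -0.17. Of 19 genes that E2F drives, 1 was higher at both numbers (Rrm2, 0.19 and 0.23) and 6 lower, among them the licensing factor gene Cdt1 (-0.20 and -0.41) and Rfc4 (-0.29 and -0.18), with a median of -0.08. Of 16 mitosis genes, 2 were higher at both numbers (Cenpe, 0.57 and 0.27, and Aurka, 0.41 and 0.14) and 4 lower, Cdc20 (-0.25 and -0.13) and Aurkb (-0.10 and -0.28) among them, with a median of -0.01. None of the E2F-driven or mitosis genes was 2-fold apart between numbers in both genotypes, against 3.78% of all genes higher and 4.52% lower at number 2.

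Of 16 regulators of p53, 6 were higher and 4 lower at both numbers, and the median was 0.05. The phosphatase gene Ppm1d differed by 0.33 and 0.46 and the acetyltransferase gene Ep300 by 0.33 and 0.28, while Npm1, whose product binds Arf, was at -0.20 and -0.12 and Kat5 at -0.21 and -0.05. Of 17 tested Polycomb and other regulators of the INK4 locus, 9 were higher and 2 lower at both numbers, and the median was 0.17. Ets1, an activator of p16, read 1290 and 2266 in wild-type and knockout cells at number 1 and 568 and 1228 at number 2 (0.81 and 1.10). Phc2, a Polycomb subunit gene, was at 0.75 and 0.49. The lower ones were Ets2 (-0.63 and -0.39) and the Polycomb subunit gene Eed (-0.10 and -0.04).

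The labelled cell type was checked against markers. All 8 fibroblast markers passed the filter on dim values, Vim at 20164 to 29116 and Col1a2 at 16542 to 20947. Of the leukocyte, endothelial, epithelial and muscle markers, 7 of 16 passed. Among these were the leukocyte markers Cd68 (132.8 to 223.7) and Csf1r (91.3 to 174.8) and the endothelial marker Kdr (48.2 to 82.5). Csf1r was higher (0.82 and 0.63) and Cd68 lower (-0.35 and -0.29) in the knockout at both numbers. Ptprc, Adgre1, Pecam1, Cdh5 and Tek were below the filter. Among the epithelial markers, the keratin gene Krt18 read 298 and 266 on the arrays numbered 1 and 11.4 and 27.6 on those numbered 2 (wild type first), and Cdh1, below the filter, was also lower at number 2. Epcam went the other way, at 145 and 112, then 163 and 190.4, and Krt8, below the filter, read 53.8 and 41.0, then 55.2 and 47.4. The muscle actin gene Acta1 read 138 and 159 at number 1 and 762 and 768 at number 2. The other muscle markers did not share this. Myod1 (25.9 and 25.2, then 4.09 and 17.5) and Myog (29.8 and 24.0, then 7.13 and 21.2) were below the filter and lower at number 2. Des was higher at number 2 than at number 1 in wild-type cells, and lower in knockout cells (47.0 and 88.5, then 72.7 and 62.0). The summed epithelial markers were 443 to 657 at number 1 and 233 to 267 at number 2, the leukocyte markers 369 to 422 and 276 to 316, the endothelial markers 131 to 135 and 107 to 147, and the muscle markers 240.3 to 296 and 846 to 868. The fibroblast markers summed to 88010 to 100001 and 96219 to 114354, and 5 of the 8 were higher and 2 lower at number 2 in both genotypes. Between genotypes, 6 of the 8 were lower and 0 higher in the knockout at both numbers, against 29.3% and 33.9% of all genes. S100a4 was higher at number 2 in both genotypes (8567 and 4666, then 19954 and 18145), while Col1a1 was lower (11898 and 11395, then 6488 and 4037). The part of such differences in the levels of Cdkn2a, Cdkn2b, Cdkn1a and Mdm2 was not tested. In bulk samples, fewer cells of a kind and less RNA per cell cannot be told apart.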

How the data were processed

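Each of the 4 MEF samples, 2 with vector and 2 with Cre, was hybridised to its own array. The deposited intensity values are linear signals of probe sets. The submitters' processing notes name MAS5 as the tool, and the sources used here do not give its settings. The mean of each array was 498 with the lowest and highest 2% left out, as a global scaling gives, so differences are relative to the average of the array. Detection calls were not used.

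Of 45037 probe sets left after 64 controls, 34945 had 1 gene symbol in the platform annotation, 932 several and 9160 none, and only the first were named. The identifiers of all 9 genes with a probe set were in the RefSeq gene table of GRCm38.p6, which also gave the neighbours, and upstream sequences came from RefSeq tables of that build. A pseudocount of 9.96, which is the 20th percentile over the arrays, was added before taking log2, and this understates fold changes of dim genes. The upper 50% by mean log2 signal (above about 62.8) were tested, 22519 probe sets and 10714 genes, with limma 3.58.1 in R 4.3.3 (eBayes with an intensity trend, 2-sided, Benjamini-Hochberg over all tested probe sets, threshold 0.05). Genotype was the only term. The fit was tested on simulated data that held no difference between replicate numbers. The real arrays did differ between numbers, so the simulation does not show how the fit performs on them. Figures used matplotlib 3.10.9 in Python 3.11.15.

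The members and gene lists were chosen with earlier results of these data known. Besides the members, the text names Pagr1a, the 3 nearest profiles and, from each list, up to 2 genes a direction whose differences had the same sign at both numbers, ranked by the smaller one. Flanking genes, genes at least 2-fold apart between numbers and the single markers given from the marker lists were picked after their values were seen. Alternatives were quantile normalization, other pseudocounts and filters, no trend, a block for the replicate number, and fits without each array in turn.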

Additional observations from a re-analysis of the deposited data

How the results depend on the processing

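With the replicate number as a block, limma called 447 of 22519 probe sets (118 higher, 329 lower), against 0 without it, but 0 of the 9 cell cycle genes (adjusted p from 0.158 for Cdkn2a to 0.906 for Mdm2). The deviations of the arrays of the same number correlated at 0.805. With 2 pairs and no label that ties the numbers to a culture or day, they were not taken as pairs. Under each alternative without a block, the adjusted p of the 9 genes was at least 0.999. Quantile normalization, other pseudocounts, filters and the variance model turned the sign of none of the 9 group differences, but quantile normalization took Cdkn1a at number 2 from -0.02 to 0.03, so that 4 genes in place of 5 were lower in the knockout at both numbers. Leaving out 1 array turned the sign for 8 of the 9 genes, all but Rbl1, and such fits hold unequal numbers in the genotypes. The ranges were -2.50 to 1.14 for Cdkn2a, -2.80 to 1.20 for Cdkn2b, -0.62 to 0.28 for Cdkn2c, -0.88 to 0.74 for Cdkn1a, -0.50 to 0.29 for Cdkn1b, -0.55 to 0.64 for Mdm2, -0.13 to 0.28 for Rb1 and -0.11 to 0.61 for Rbl2. Added after the data were seen, quantile normalization, pseudocounts of 1 and 64.9 and the mean of the probe sets left 2 of the 9 genes at least 2-fold higher and 2 lower at number 2. Those of the p53 targets ran from 5 to 8 higher, with 2 lower. Signal near background limits the 5 dim probe sets.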
